A study of Mus musculus with 6 samples.

Results

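The genes described here encode the activin, bone morphogenetic protein (BMP) and transforming growth factor beta (TGF-beta) pathway: its secreted ligands, their receptors, the SMAD proteins that carry the signal, and the extracellular proteins that trap, release or process the ligands. They were taken by gene symbol from the annotation of the array, which gave 54 of the 18193 genes with a symbol of their own. Each gene was read on its probe set (a set of short oligonucleotides against transcripts of the gene) with the highest mean signal over all 6 arrays. Messenger RNA was measured on postnatal day 1 in subiculum and retrosplenial cortex, neighbouring areas of the medial cortex that were dissected together, from C57BL/6 mice of 2 genotypes. The groups were wildtype littermates and D6/Zbtb20S transgenic mice, whose areas the submitters describe as transformed towards CA1, a field of the hippocampus. Zbtb20 is a zinc finger repressor of developing hippocampal pyramidal neurons, and D6 names the regulatory element that drives the transgene in developing cortex. Each genotype had 3 arrays, every one hybridised with RNA pooled from 7 animals, so the spread between animals was not seen. Nothing in the sources says that the pools of a genotype came from separate litters, and p-values then measure only the spread between these pools.

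Ligands of this family are secreted as dimers and bind a complex of type I and type II receptors, both of which are serine/threonine kinases. The type II receptor phosphorylates the type I receptor, which in turn phosphorylates receptor SMADs. Activins and TGF-betas act mostly through Smad2 and Smad3, BMPs mostly through Smad1, Smad5 and Smad9, and all of these pair with Smad4 to regulate transcription. In the forebrain BMPs are known for patterning the dorsal midline next to which the hippocampus forms, and activin for its action on neuronal survival and synapses.

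Arrays of different genotypes correlated at 0.988 to 0.991 over all genes and arrays of the same genotype at 0.994 to 0.997. Of 9 Zbtb20 probe sets 1 was called higher in D6/Zbtb20S tissue, where it read 8.97 ± 0.11 (log2 signal; wildtype 6.64 ± 0.92, SD, n = 3 each). Wildtype replicate 3 had the highest wildtype signal on 9 of the 9 Zbtb20 probe sets, so counts are also given without it. Markers of the dissected areas lay above the array median in wildtype tissue, except the subiculum gene Scn4b. Many were lower in D6/Zbtb20S tissue: 4 of 7 subiculum genes and 3 of 6 retrosplenial genes fell, and 1 retrosplenial gene rose. Of 10 CA1 genes 2 rose and 2 fell. The 10 include Zbtb20 itself, which was counted there as not passing. It was read on its brightest probe set, which is not the called one. That set read 8.34 ± 0.57 in wildtype and 8.21 ± 0.09 in D6/Zbtb20S tissue (SD, n = 3 each). The difference between the signals of the 3′ and 5′ ends of the actin control, a measure of RNA integrity and labelling, was 0.53, 0.88 and 1.31 in wildtype replicates 1, 2 and 3 and between 0.80 and 0.91 in D6/Zbtb20S arrays. For 21.9% of all genes the wildtype arrays had this same order, lowest in replicate 1 and highest in replicate 3.

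In D6/Zbtb20S tissue both measured activin chains that are expressed above the array median (Inhbb and Inhba), the activin antagonist follistatin (Fst), the follistatin-like gene Fstl1 and the type I receptor genes Bmpr1b and Acvr1 were higher. The activin type II receptor gene Acvr2a, the BMP-family ligand gene Gdf10 and the BMP SMAD gene Smad1 were lower. These 9 genes, 16.7% of the 54, passed an adjusted p under 0.05 in limma, where 7.71% of all genes passed. Higher were 6 of the 54 (11.1%) against 4.06% of all genes, and lower were 3 (5.56%) against 3.64%. At least 2-fold, 4 of the 54 changed (7.41%) against 1.45% of all genes, namely Inhbb, Bmpr1b, Acvr2a and Gdf10. The median change over the 54 genes was -0.04 and that over all genes -0.02 on the log2 scale. The other 45 genes did not pass and had changes from -0.30 to 0.45. In bulk tissue, fewer cells of a type and less RNA per cell cannot be told apart. Without wildtype replicate 3, 7 genes were called higher and 2 lower, and Smad7 joined the calls while Smad1 left them. That fit called 8.45% of all genes. The changes without that array were 2.09 for Inhbb, 0.76 for Inhba, -1.45 for Gdf10, 0.69 for Fst, 0.44 for Fstl1, -1.76 for Acvr2a, 2.04 for Bmpr1b and 0.90 for Acvr1 (log2), each in the same direction as with it.

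**Figure D1:**
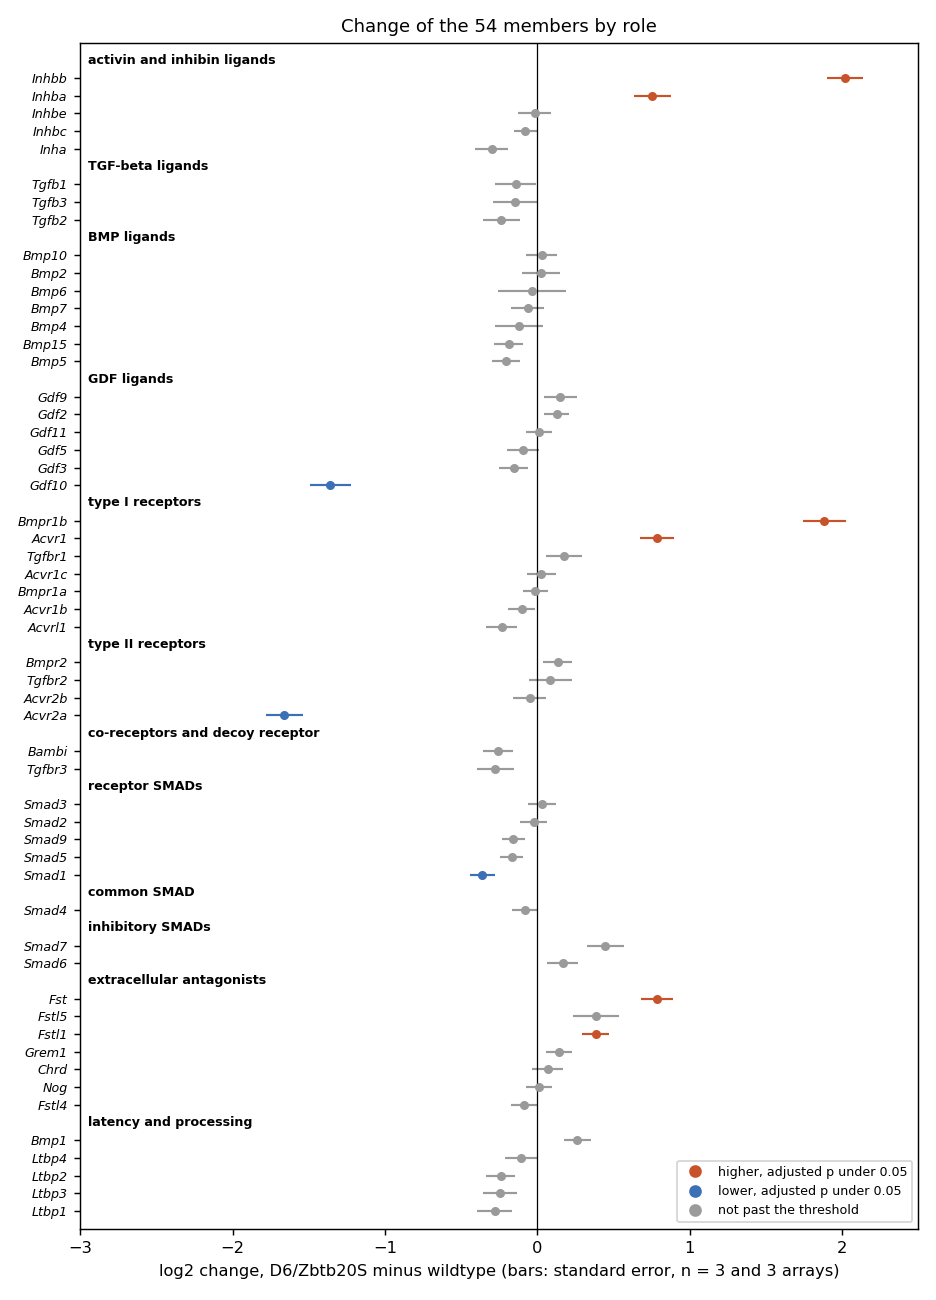
Change of each of the 54 genes (log2, D6/Zbtb20S minus wildtype, horizontal axis), grouped by role, with bars for the standard error over 3 and 3 arrays. Orange points (6) were called higher and blue points (3) lower, and the grey points lie between -0.30 and 0.45.

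Inhbb encodes the beta B chain, whose homodimer is activin B. It read 6.20, 5.79 and 6.23 in wildtype replicates 1, 2 and 3 and 8.16, 8.08 and 8.02 in D6/Zbtb20S replicates 1, 2 and 3 (log2 signal). The groups were far apart, and the D6/Zbtb20S arrays spread less than the wildtype ones. The difference was 2.02 ± 0.12 (SE) or 4.04-fold (limma adjusted p = 1.31e-05), the 32nd largest change among all genes. Its other probe set, 1426859_at, did not follow: it read 4.31 ± 0.04 in wildtype and 4.39 ± 0.13 in D6/Zbtb20S tissue (SD, n = 3 each; adjusted p = 0.723 over all probe sets). Averaged over both probe sets Inhbb rose by 1.05 (adjusted p = 7.5e-05).

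Inhba encodes the beta A chain, which forms activin A and pairs with beta B in activin AB. It read 4.62, 4.70 and 4.69 in the wildtype arrays and 5.22, 5.33 and 5.72 in the D6/Zbtb20S arrays. All D6/Zbtb20S arrays lay above all wildtype arrays, and D6/Zbtb20S replicate 3 was the highest. The gene was 1.69-fold higher (0.75 ± 0.12, adjusted p = 0.00484), and averaged over its 2 probe sets it rose by 0.39 (adjusted p = 0.0298). Its other, dim probe set, 1458291_at, did not follow. That set read 2.42 ± 0.26 in wildtype and 2.45 ± 0.14 in D6/Zbtb20S tissue (SD, n = 3 each; adjusted p = 0.936 over all probe sets). Inha, whose alpha chain turns activin chains into inhibins that oppose activin, read 7.41, 7.23 and 7.26 in wildtype and 6.90, 6.87 and 7.23 in D6/Zbtb20S arrays. Its groups did not overlap by a narrow margin, and its change of -0.30 ± 0.11 did not pass (adjusted p = 0.15). Inha passed when D6/Zbtb20S replicate 3 was removed (-0.41, adjusted p = 0.0365) or arrays were weighted (-0.31, adjusted p = 0.0449). The genes of the beta C and beta E chains, Inhbc and Inhbe, lay under the array median on all arrays, with changes of -0.08 and -0.02 that did not pass.

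The promoters of the activin chain genes that rose and of the receptor gene that fell are shown because these genes sit at both ends of the ligand and receptor pair. Each is the 250 bases before the annotated start of transcription on the gene's strand, 5′ to 3′, from RefSeq on GRCm38.p6, with any TATAAA in capitals.
Inhbb, chr1:119422249-119422498, minus strand: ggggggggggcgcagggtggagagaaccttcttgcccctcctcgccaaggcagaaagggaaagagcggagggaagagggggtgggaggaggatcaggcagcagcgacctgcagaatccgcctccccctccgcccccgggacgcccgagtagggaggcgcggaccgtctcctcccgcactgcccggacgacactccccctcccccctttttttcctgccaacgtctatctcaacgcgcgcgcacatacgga
Inhba, chr13:16011601-16011850, plus strand: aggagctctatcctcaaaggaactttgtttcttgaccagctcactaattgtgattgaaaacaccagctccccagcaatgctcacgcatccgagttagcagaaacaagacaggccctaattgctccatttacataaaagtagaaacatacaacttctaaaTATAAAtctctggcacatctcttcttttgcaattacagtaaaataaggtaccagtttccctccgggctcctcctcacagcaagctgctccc
Acvr2a, chr2:48813859-48814108, plus strand: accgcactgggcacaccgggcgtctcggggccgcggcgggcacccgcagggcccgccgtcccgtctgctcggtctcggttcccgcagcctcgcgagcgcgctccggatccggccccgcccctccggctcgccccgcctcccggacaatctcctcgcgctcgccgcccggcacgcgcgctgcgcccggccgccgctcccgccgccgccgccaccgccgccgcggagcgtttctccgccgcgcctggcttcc

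The windows of the activin chain genes differed in composition: GC made up 68.0% of that of Inhbb, with 21 CpG dinucleotides, and 43.2% of that of Inhba, with 3. The Acvr2a window had 82.0% GC and 49 CpG. The median over all 32851 promoters of the table was 52.4% GC and 6 CpG. The table held promoters for 39 of the 54 genes (49 promoters, median 64.0% GC and 21 CpG) and for 8 of the 9 called ones. The SMAD palindrome GTCTAGAC, searched on both strands, was in 0 of the 49 and in 0.167% of all promoters. The GC-rich SMAD motif GGCGCC was in 9 of the 49 (18.4%) and in 9.59% of all, which are poorer in GC, and belonged to 8 genes, none of them called: Bmpr1a, Bmpr2, Chrd, Grem1, Ltbp4, Smad5, Smad9 and Tgfbr1. The cAMP response element TGACGTCA was in 2 of the 49 (4.08%), in Fstl4 and Ltbp1, and in 1.55% of all promoters. TATAAA, a motif added after the sequences were seen, was in 14.3% of the 49 and 12.4% of all, and in Inhba it began 91 bases before the start.

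Gdf10, also known as BMP3b, was the ligand gene that fell. It read 6.35, 6.51 and 6.14 in the wildtype arrays and 5.24, 4.88 and 4.81 in the D6/Zbtb20S arrays. No arrays overlapped, and D6/Zbtb20S replicate 1 was the highest of its group. The gene was 2.56-fold lower (-1.36 ± 0.13, adjusted p = 0.000207) and has a single probe set. The other 5 GDF genes (Gdf2, Gdf3, Gdf5, Gdf9 and Gdf11) had changes from -0.16 to 0.15, and none passed. Gdf9 and Gdf2, known from the ovary and from the vasculature respectively, read 5.23 ± 0.21 and 5.15 ± 0.08 in wildtype and 5.38 ± 0.06 and 5.27 ± 0.07 in D6/Zbtb20S tissue (SD, n = 3 each).

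None of the 7 BMP ligand genes passed in limma, with changes from -0.21 (Bmp5) to 0.03 (Bmp10). Both group means of 4 of them lay under the array median. Bmp7, a BMP of meninges and dorsal midline, read 4.84 ± 0.08 in wildtype and 4.78 ± 0.20 in D6/Zbtb20S tissue (SD, n = 3 each), and the groups overlapped. Bmp6 spread most, from 3.63 in D6/Zbtb20S replicate 2 to 4.63 in D6/Zbtb20S replicate 3, with wildtype arrays between 4.17 and 4.48. The sign of its change (-0.03) turned to 0.07 without wildtype replicate 3 and 0.27 without D6/Zbtb20S replicate 2.

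None of the 3 TGF-beta genes passed either (changes of -0.14, -0.24 and -0.15 for Tgfb1, Tgfb2 and Tgfb3). Tgfb2, the TGF-beta best known from neurons, had probe sets that went different ways. Its probe set with the highest signal read 5.33, 5.66 and 5.68 in wildtype and 5.49, 5.13 and 5.34 in D6/Zbtb20S arrays. On 1423250_a_at the values were 3.79, 4.37 and 4.57 in wildtype and 5.34, 5.14 and 5.24 in D6/Zbtb20S arrays, a difference of 1.00 ± 0.18 (adjusted p = 0.0157 over all probe sets). The other pair of Tgfb2 probe sets had changes of -0.44 and -0.18, and neither passed. The mean of the Tgfb2 probe sets changed by 0.04 (adjusted p = 0.903).

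Among the extracellular antagonists 2 of 7 rose and 0 fell. Follistatin, the product of Fst, binds activins with high affinity and keeps them from their receptors. It read 6.28, 6.46 and 6.08 in the wildtype arrays and 7.12, 7.11 and 6.95 in the D6/Zbtb20S arrays, with no overlap. The gene was 1.72-fold higher (0.78 ± 0.11, adjusted p = 0.00163), and its other probe set rose as well, from 3.83 ± 0.09 to 4.54 ± 0.14 (SD, n = 3 each; adjusted p = 0.00409 over all probe sets).

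Fstl1, a secreted follistatin-like glycoprotein, read 7.79, 7.72 and 7.92 in wildtype and 8.28, 8.11 and 8.18 in D6/Zbtb20S arrays. The groups were separate but close, and the gene was 1.30-fold higher (0.38 ± 0.09, adjusted p = 0.027). Of the 6 fits with a single array removed, 4 did not call Fstl1: those lacking replicate 1 of either genotype, replicate 2 of wildtype or replicate 3 of D6/Zbtb20S (highest adjusted p 0.132). Its second probe set changed by 0.49 ± 0.17 and did not pass. Fstl5 had a change of 0.38 ± 0.15 with overlapping arrays (adjusted p = 0.183), and passed when its 2 probe sets were averaged (0.46, adjusted p = 0.0481) or arrays were weighted (0.52, adjusted p = 0.031). The BMP antagonist genes Nog (noggin) and Grem1 (gremlin) lay under the array median on all arrays. Chrd (chordin) read 4.92 ± 0.10 in wildtype and 4.99 ± 0.15 in D6/Zbtb20S tissue (SD, n = 3 each).

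**Figure D2:**
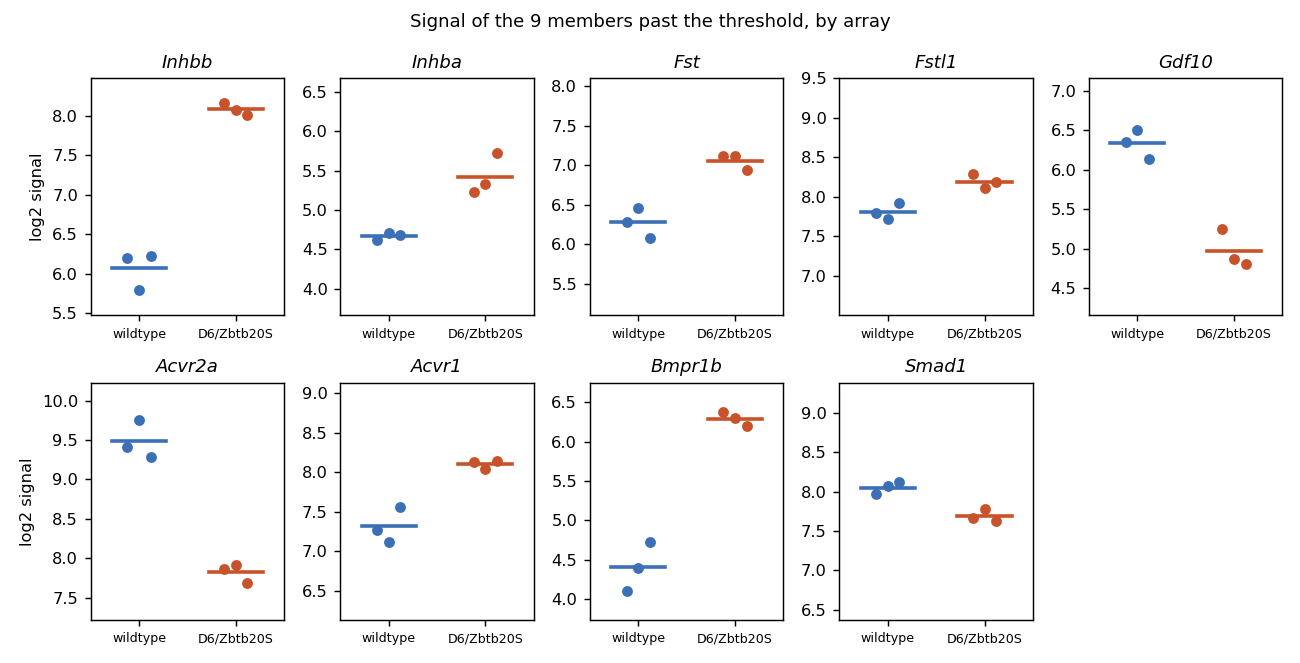
Log2 signal of the 9 genes past the threshold on each array (points; wildtype blue, D6/Zbtb20S orange), with the mean of each genotype as a line; the vertical axis differs between panels. In every panel the genotypes are separate, from 2.02 on the log2 scale for Inhbb to 0.36 for Smad1 in size.

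Among the 4 type II receptor genes 1 fell and 0 rose. Acvr2a encodes a receptor that binds activins and several BMPs and GDFs. It read 9.41, 9.75 and 9.28 in the wildtype arrays and 7.87, 7.91 and 7.69 in the D6/Zbtb20S arrays. The lowest wildtype array was above the highest D6/Zbtb20S array by more than the spread of either group. Acvr2a was 3.16-fold lower (-1.66 ± 0.12, adjusted p = 4.4e-05), the 64th largest change of all genes. Its second probe set fell too, from 5.72 ± 0.09 to 4.98 ± 0.02 (SD, n = 3 each; -0.74 ± 0.08, adjusted p = 0.00147 over all probe sets).

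The paralog Acvr2b read 5.20, 5.16 and 5.17 in wildtype and 4.96, 5.05 and 5.37 in D6/Zbtb20S arrays. D6/Zbtb20S arrays lay on both sides of the wildtype ones, and the change of -0.05 ± 0.11 did not pass (adjusted p = 0.844). Bmpr2, the BMP type II receptor, changed by 0.13 ± 0.09 and did not pass, while its dim probe set 1419616_at rose from 3.10 ± 0.16 to 3.63 ± 0.14 (SD, n = 3 each; adjusted p = 0.0287 over all probe sets). Tgfbr2, the type II receptor of TGF-beta, had overlapping arrays and a change of 0.08 ± 0.14 (adjusted p = 0.8).

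Of 7 type I receptor genes 2 rose and 0 fell. Bmpr1b (ALK6), a BMP receptor, read 4.10, 4.39 and 4.73 in the wildtype arrays and 6.38, 6.31 and 6.19 in the D6/Zbtb20S arrays. The 3.69-fold rise (1.88 ± 0.14, adjusted p = 4.67e-05) was the 46th largest change of all genes. Both other Bmpr1b probe sets were near the floor, at means from 1.28 to 1.98, and did not pass, and the mean over its probe sets rose by 0.71 (adjusted p = 0.0008). The wildtype arrays had the order of their actin 3′ to 5′ difference on Bmpr1b, as on 15 of the 54 genes, among them 2 of the 9 called ones (Bmpr1b and Smad1). The called probe sets 1423250_a_at of Tgfb2 and 1422485_at of Smad4 had that order too. The part of RNA integrity or labelling in these results was not tested.

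Acvr1 (ALK2), a type I receptor that signals to the BMP SMADs, read 7.27, 7.12 and 7.56 in wildtype and 8.12, 8.04 and 8.14 in D6/Zbtb20S arrays. All D6/Zbtb20S arrays were higher, and the gene was 1.72-fold higher (0.78 ± 0.11, adjusted p = 0.00215). Of its other probe sets 1416786_at rose (0.67 ± 0.12, adjusted p = 0.0145 over all probe sets), and 1416787_at had a change of -0.25 ± 0.11 that did not pass. The mean of its probe sets rose by 0.40 (adjusted p = 0.0131).

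The other type I receptors did not pass. Acvr1b (ALK4), the main type I receptor for activin, read 8.78, 8.77 and 8.60 in wildtype and 8.51, 8.65 and 8.67 in D6/Zbtb20S arrays, and the groups overlapped (-0.10 ± 0.09, adjusted p = 0.569). Bmpr1a (ALK3), the closest relative of Bmpr1b, read 6.85 ± 0.05 and 6.84 ± 0.10 (SD, n = 3 each), a change of -0.01 ± 0.08 (adjusted p = 0.953). Tgfbr1 (ALK5) had a change of 0.17 ± 0.12 with overlapping arrays. Acvr1c (ALK7), a receptor for activin B and nodal named after its values were seen, lay under the array median, with a change of 0.03 ± 0.09. Its probe set 1438309_at, dimmer still, rose from 1.68 ± 0.15 to 2.70 ± 0.18 (SD, n = 3 each, adjusted p = 0.00198 over all probe sets). The dimmest, 1443225_at, was higher without overlap, at 1.38 ± 0.07 in wildtype and 1.85 ± 0.28 in D6/Zbtb20S tissue (SD, n = 3 each). That probe set did not pass (adjusted p = 0.102 over all probe sets).

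The co-receptor gene Tgfbr3 (betaglycan, which presents TGF-beta2 and inhibin) and the decoy receptor gene Bambi had lower D6/Zbtb20S arrays without overlap. Tgfbr3 read 5.33, 5.30 and 5.45 in wildtype and 5.15, 4.81 and 5.29 in D6/Zbtb20S arrays. Bambi read 4.57, 4.61 and 4.64 in wildtype and 4.28, 4.22 and 4.54 in D6/Zbtb20S arrays. Neither change passed (-0.28 ± 0.12, adjusted p = 0.233, and -0.26 ± 0.10, adjusted p = 0.157). Bambi passed when D6/Zbtb20S replicate 3 was removed (-0.35, adjusted p = 0.0444) or arrays were weighted (-0.30, adjusted p = 0.0292). Separate arrays alone were common: they were found for 26.1% of all genes and for 18 of the 54 (33.3%), of which 9 did not pass.

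**Figure D3:**
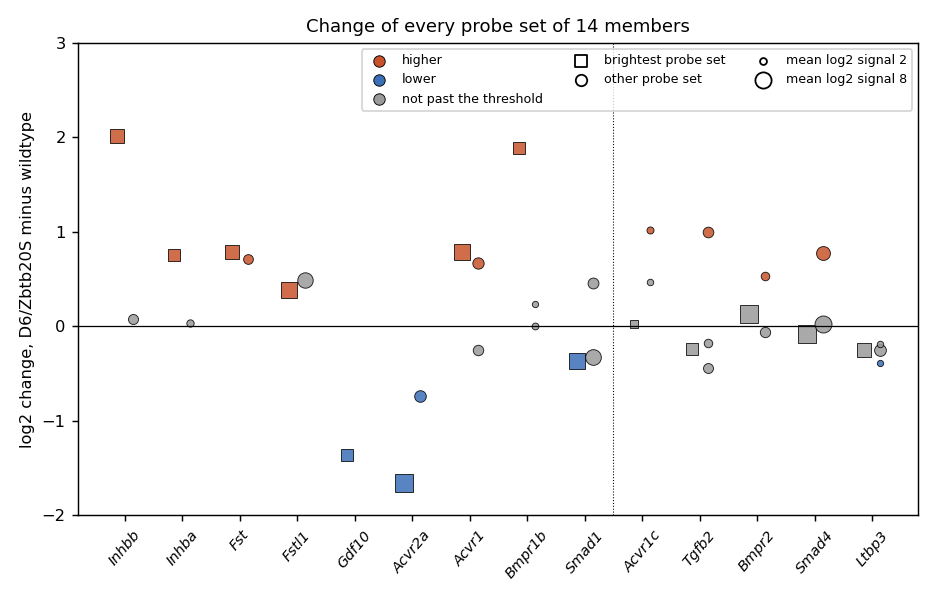
Change (log2, D6/Zbtb20S minus wildtype, vertical axis) of every probe set of 14 genes: the 9 called genes left of the dotted line and, right of it, the 5 with a call on another probe set only. Squares mark the brightest probe set, which stands for the gene, point size the mean log2 signal, and colour the call over all probe sets. Fst and Acvr2a have every probe set called, and Inhbb, Inhba, Bmpr1b, Fstl1 and Smad1 only the brightest.

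Among the 5 receptor SMADs 1 fell and 0 rose. Smad1, a BMP SMAD, read 7.97, 8.06 and 8.12 in wildtype and 7.67, 7.77 and 7.63 in D6/Zbtb20S arrays, separate by a small margin. The gene was 1.29-fold lower (-0.36 ± 0.08, adjusted p = 0.0258). Smad1 was no longer called in the fits lacking replicate 3 of either genotype, replicate 2 of wildtype or replicate 1 of D6/Zbtb20S (highest adjusted p 0.108), nor when replicate number was a block (adjusted p = 0.0521). Averaged over its 3 probe sets Smad1 changed by -0.08 (adjusted p = 0.754): 1459843_s_at had a change of -0.33 and 1416081_at of 0.46, and neither passed.

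Smad5 and Smad9, the other BMP SMADs, had changes of -0.17 ± 0.07 (adjusted p = 0.235) and -0.16 ± 0.08 (adjusted p = 0.29), with separate arrays, and Smad9 lay under the array median. Another Smad5 probe set, 1421047_at, was higher without overlap, at 4.11 ± 0.22 and 4.59 ± 0.10 (SD, n = 3 each), and did not pass (adjusted p = 0.0583 over all probe sets). The activin and TGF-beta SMADs had overlapping arrays on their brightest probe sets. Smad2 read 6.01 ± 0.03 in wildtype and 5.99 ± 0.14 in D6/Zbtb20S tissue, and Smad3 5.91 ± 0.14 and 5.94 ± 0.05 (SD, n = 3 each). The second Smad2 probe set, 1442062_at, read 6.05 ± 0.14 in wildtype and 5.60 ± 0.18 in D6/Zbtb20S tissue without overlap (SD, n = 3 each), and its change of -0.45 ± 0.12 did not pass (adjusted p = 0.0649 over all probe sets). The common partner Smad4 changed by -0.08 ± 0.08 on its brightest probe set (adjusted p = 0.646) and by 0.02 on its second. Its dimmest, 1422485_at, rose from 5.97, 6.37 and 6.54 in wildtype to 7.18, 7.03 and 6.99 in D6/Zbtb20S arrays (0.78 ± 0.14, adjusted p = 0.017 over all probe sets).

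Smad7, an inhibitory SMAD induced by the pathway that it limits, read 5.04, 5.31 and 5.50 in wildtype and 5.78, 5.83 and 5.57 in D6/Zbtb20S arrays. The arrays were separate, and the change of 0.45 ± 0.12 had the smallest adjusted p of the genes that did not pass (0.06). It passed without wildtype replicate 3 (0.55, adjusted p = 0.0197), when its probe sets were averaged (0.40, adjusted p = 0.0444) and when arrays were weighted (0.46, adjusted p = 0.00996). The wildtype arrays of Smad7 also had the order of their actin difference. Smad6, the other inhibitory SMAD, lay under the array median, with a change of 0.16 ± 0.10.

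None of the 5 genes of latency and processing passed. Bmp1, a metalloproteinase that cleaves procollagen and chordin and is no ligand, read 6.75, 6.56 and 6.49 in wildtype and 6.94, 6.84 and 6.81 in D6/Zbtb20S arrays (0.26 ± 0.09, adjusted p = 0.13; 0.0265 with array weights). The latent TGF-beta binding protein genes Ltbp1, Ltbp2, Ltbp3 and Ltbp4 had changes from -0.28 to -0.11. Ltbp1 and Ltbp2 lay under the array median on all arrays. Ltbp3 passed when its probe sets were averaged (-0.27, adjusted p = 0.0397), and its dimmest probe set, 1437833_at, fell (-0.39 ± 0.08, adjusted p = 0.0253 over all probe sets).

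Probe sets other than the brightest gave 8 calls among 56 (14.3%), where 6.33% of all such probe sets of the array were called. Of these, 3 belonged to genes called in the same direction on the brightest set (Fst, Acvr1 and Acvr2a), and 5 to genes that were not called (Acvr1c, Tgfb2, Bmpr2, Smad4 and Ltbp3). Different probe sets of a gene can report different ends of its transcripts, and their positions were not used here.

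Other genes of the pathway were taken from lists of further ligands, co-receptors, extracellular modulators, activating proteins, intracellular regulators and known target genes. The lists also held Gdnf and Nrtn, distant members of the ligand family, and their receptor genes Gfra1 and Ret, which are counted here. Of 83 genes measured, 3 rose and 7 fell (12% called, against 7.71% of all genes), with a median change of -0.02. The target genes held 5 of these calls among 16. Id2, an inhibitor of basic helix-loop-helix factors and a classical BMP target, was 2.40-fold lower. It read 10.51, 10.55 and 10.34 in wildtype and 9.34, 9.41 and 8.87 in D6/Zbtb20S arrays (-1.26 ± 0.14, adjusted p = 0.000436). Its relatives Id1, Id3 and Id4, also BMP targets, had overlapping arrays and changes of -0.13, -0.11 and 0.30.

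Ccn2, a matricellular TGF-beta target that also marks the subplate, read 4.90 ± 0.12 in wildtype and 4.15 ± 0.10 in D6/Zbtb20S tissue (SD, n = 3 each; adjusted p = 0.000872). Cdkn1a, the cell cycle inhibitor p21, fell by 0.43 (adjusted p = 0.0207), but 5 of the 6 fits lacking an array did not call it (highest adjusted p 0.0756), the exception being the fit lacking D6/Zbtb20S replicate 1. Cdkn1a was not called either when its probe sets were averaged. Msx1, a homeobox BMP target named after its values were seen, fell by 0.40 (adjusted p = 0.0437). Pmepa1, a membrane protein induced by TGF-beta that holds back SMAD signalling, rose. It read 5.20, 5.34 and 5.66 in wildtype, again in the order of the actin difference, and 6.03, 5.97 and 6.05 in D6/Zbtb20S arrays (0.62 ± 0.12, adjusted p = 0.0105). Pmepa1 was not called in the fits lacking wildtype replicate 2 or D6/Zbtb20S replicate 1 (highest adjusted p 0.0537). The direction thus differed between the target genes that passed, with 1 higher and 4 lower.

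Of 24 intracellular regulators 2 rose, Pmepa1 and Zeb2, and 0 fell. Zeb2, a zinc finger and homeodomain repressor that binds SMADs, read 7.97, 7.94 and 8.25 in wildtype and 9.37, 9.48 and 9.30 in D6/Zbtb20S arrays. It was 2.51-fold higher (1.33 ± 0.10, adjusted p = 5.13e-05). Among the activating proteins 1 of 8 rose: Pcsk5, a proprotein convertase, from 6.81 ± 0.13 to 7.50 ± 0.13 (SD, n = 3 each; adjusted p = 0.00224).

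Of 19 other extracellular modulators 2 fell and 0 rose. Crim1, a transmembrane protein with cysteine-rich repeats that binds BMPs, read 6.32, 6.51 and 6.14 in wildtype and 4.62, 4.45 and 4.55 in D6/Zbtb20S arrays, a 3.44-fold difference without overlap (adjusted p = 1.31e-05). The chordin relative Chrdl1 was 1.49-fold lower (adjusted p = 0.01), and was not called when its probe sets were averaged (adjusted p = 0.0505). Among co-receptors and other receptors 1 of 13 fell, Gfra1, the receptor for GDNF, a distant member of the ligand family. It read 6.13, 6.35 and 6.40 in wildtype and 4.82, 4.72 and 4.42 in D6/Zbtb20S arrays (3.11-fold, adjusted p = 3.97e-05). None of the 6 further ligands passed.

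**Figure D4:**
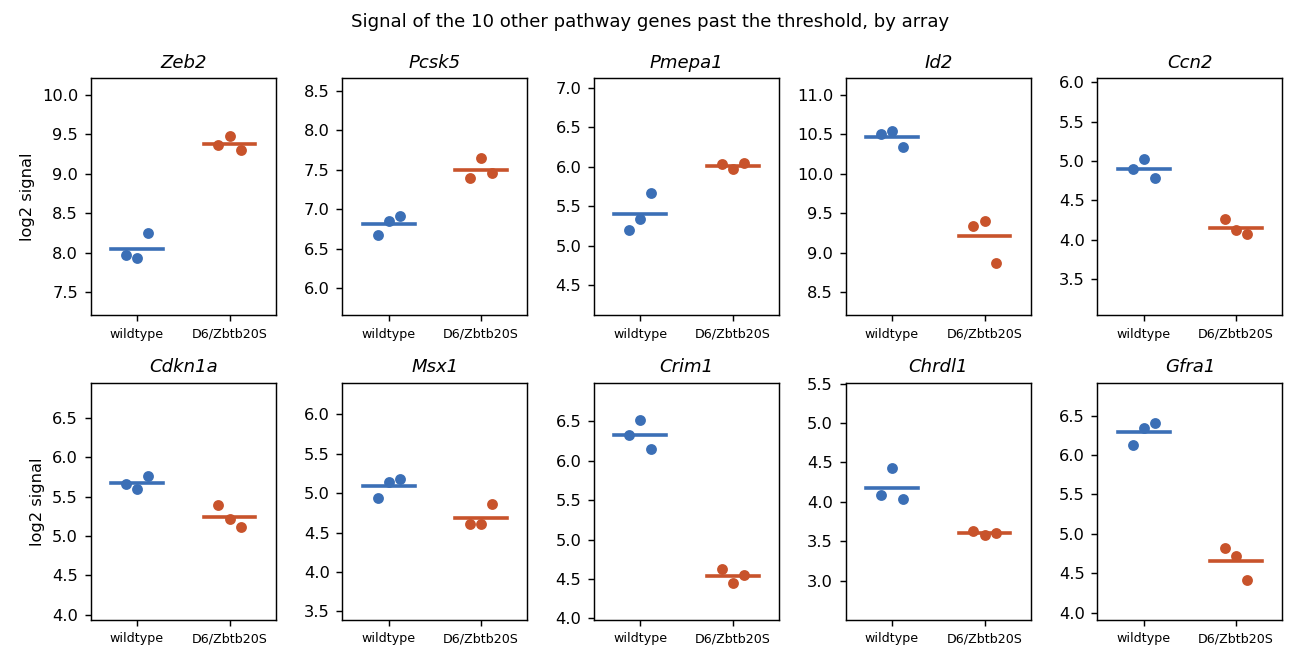
Log2 signal of the 10 further pathway genes past the threshold on each array (points; wildtype blue, D6/Zbtb20S orange), with the mean of each genotype as a line; the vertical axis differs between panels. Zeb2, Pcsk5 and Pmepa1 are higher and the other 7 lower in D6/Zbtb20S tissue, without overlap.

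Markers of other cell types were read on the same arrays, since several of these pathway genes are also expressed outside neurons. Of 13 microglial genes 4 rose and 0 fell (median change 0.40), and their summed linear signal ran from 649 to 686 in wildtype and from 835 to 968 in D6/Zbtb20S arrays; Itgam was near the floor. Of 9 oligodendrocyte lineage genes 4 fell and 0 rose (median -0.29), with sums from 993 to 1176 in wildtype and from 716 to 795 in D6/Zbtb20S arrays, and Mog near the floor. Of 12 GABAergic genes 2 fell (sums from 1064 to 1116 against 865 to 925), and of 15 astrocyte and radial glia genes 2 fell (sums from 6897 to 7680 against 7236 to 7324). Linear sums weigh bright genes most, among the astrocyte and radial glia genes Fabp7 (log2 mean 11.87 in wildtype and 11.94 in D6/Zbtb20S tissue). The part of these cells in the 9 calls was not tested.

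For the sources of BMPs next to the cortex, the sums overlapped between genotypes. None of 12 meningeal and fibroblast genes passed (sums from 906 to 1365 in wildtype and from 691 to 1334 in D6/Zbtb20S arrays), and none of 7 choroid plexus genes (97.1 to 153 and 86.3 to 155). Both group means of 5 of these 7 lay under the array median, with Kcne2 and Otx2 near the floor. Of 13 endothelial and mural genes 1 fell and of 6 Cajal-Retzius genes 0 passed (median change -0.24). Of 7 intermediate progenitor genes 1 rose and 1 fell, and of 10 genes of excitatory neurons 3 rose and 3 fell.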

How the data were processed

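RNA of 6 pools was hybridised to Affymetrix 3′ expression arrays. The deposited table holds 1 log2 value per probe set and array. RMA, which corrects background, normalizes arrays and summarises probes, and limma are named in the submitters' processing notes. Versions and order are not given in the sources used here. Medians ran from 3.83 to 3.97 over the arrays, which leaves the final scaling and any centring by the authors unknown; the log2 base was taken from the range of the values. RMA compresses changes near the floor. Precision is limited by having 3 arrays a genotype.

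Of 45101 probe sets, 64 controls were left out, and 34945 had 1 symbol in the platform annotation (932 had several, 9160 none). Of these, 34741 had a gene ID found in the RefSeq table of GRCm38.p6. The test for the 18193 genes was limma 3.58.1 (lmFit and eBayes under R 4.3.3, 1 coefficient per genotype). P-values were Benjamini-Hochberg adjusted across the 18193 genes or, for a named probe set, across the 45037 probe sets, and a call is an adjusted p under 0.05. Changes are D6/Zbtb20S minus wildtype on the log2 scale, ± their standard error unless SD is named.

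The genes and lists were chosen with earlier results of these data known. Named are every one of the 54 genes past the threshold, up to 3 others per role by mean signal, any other of the 54 with a change of at least 0.5 without overlap, and, of each further pathway list, up to 4 genes past the threshold by smallest p. Alternatives were 14 other fits. Promoters came from RefSeq. Figures used matplotlib 3.10.9.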

Additional observations from a re-analysis of the deposited data

How the results depend on the processing

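Inhbb, Bmpr1b and Acvr2a kept their calls in all 14 other fits, and Inhba, Gdf10, Acvr1 and Fst in all but the ordinary linear model without empirical Bayes. That model, with fewer degrees of freedom, called 2 of the 54 genes higher and 1 lower, and 1 of the further pathway genes higher and 3 lower, where it called 1.47% of all genes. Array weights called 9 of the 54 higher and 6 lower, and 7 further pathway genes higher and 11 lower, where they called 14.9% of all genes. The mean of all probe sets called 9 of the 54 higher and 5 further genes higher, where it called 8.23% of all genes. Leaving out 1 array gave 5 to 7 genes higher and 2 to 4 lower of the 54, and 2 to 3 higher and 5 to 8 lower of the further ones. These fits called from 4.27% (without wildtype replicate 2) to 8.45% (without wildtype replicate 3) of all genes.

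Deviations of same-numbered arrays of the genotypes correlated at -0.22, 0.18 and -0.01, so the replicate numbers were not taken as pairs in the main fit. Only wildtype replicate 2 correlated best with the array of its own number. With so few arrays, these correlations cannot show whether same-numbered pools shared a litter. The replicate block called 6 of the 54 higher and 2 lower, losing Smad1, and 4 further genes higher and 7 lower. It called 7.38% of all genes.

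None of 18 called genes changed direction in the 14 other fits, and the size of the change of Msx1 was not read there. Among 32 named genes that did not pass, 14 changed sign in at least 1 fit, and none passed there. Array weights gave 0.090 for Inhbe, 0.025 for Bmpr1a and -0.042 for Smad3. Equal medians gave -0.0075 for Gdf11. Quantile normalization gave -0.014 for Gdf11 and -0.014 for Smad3. The mean of all probe sets gave 0.036 for Tgfb2, -0.025 for Tgfbr2, 0.00076 for Acvr2b, 0.080 for Smad5, -0.041 for Smad3 and 0.24 for Smad4. With 1 array left out the ranges were -0.11 to 0.097 for Inhbe, -0.25 to 0.017 for Tgfb1, -0.17 to 0.018 for Bmp7, -0.23 to 0.27 for Bmp6, -0.045 to 0.054 for Gdf11, -0.066 to 0.030 for Bmpr1a, -0.030 to 0.25 for Tgfbr2, -0.17 to 0.033 for Acvr2b, -0.097 to 0.039 for Smad2, -0.052 to 0.081 for Smad3 and -0.019 to 0.13 for Chrd. The cause was not tested.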
